A study of Mus musculus with 18 samples.

Results

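Caspases are proteases that carry out or regulate cell death, and the Bcl2 family decides at the mitochondrion whether they are switched on. The genes described here are 9: the inflammatory caspases Casp1, Casp4 and Casp12, the initiator caspases Casp8 and Casp9, the executioner caspase Casp6, the pro-survival genes Bcl2 and Bcl2l1, and the pro-death gene Bax. They were chosen by name, and every probe set whose gene symbol in the platform annotation was one of them was taken. A probe set is a group of short oligonucleotides designed to read transcripts of a gene. Whether a probe set also reads transcripts of other genes was not tested. Of the 9 genes, 8 had a probe set, with 19 probe sets in all among the 45101 on the array, and Bax was not analysed here.

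The samples were total RNA from Ppt1 knockout and wild-type mice aged 3, 5 or 8 months, with 3 arrays in each of the 6 groups and 1 array for each sample. Ppt1 codes for a lysosomal thioesterase that strips palmitate from proteins, and its loss causes the infantile form of neuronal ceroid lipofuscinosis. The mice were not described beyond genotype, age and sex: the sources used here give no strain, knockout design or pooling of animals. The knockout at 8 months was made up of 2 males and 1 female, and every other group of 2 females and 1 male. The tissue label names both brain and cochlea. Neuronal, astrocytic and oligodendrocyte markers were bright, the hair cell genes Slc26a5 and Pou4f3 were at background on 15 of 18 arrays each, and the hair cell genes Otof and Myo7a on 0 of 18. Of the 10 cochlear markers named on the array, 3 were bright enough to test.

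The signals had been brought to a common scale before deposition, with array medians between 43.2 and 46.1. The background limit of an array is the 95th percentile of its 27 bacterial control probe sets and lay between 9.24 and 19.2. The Ppt1 probe set read 543 to 629 on the 9 wild-type arrays and 0.879 to 23.4 on the 9 knockout arrays. The first principal component (24.2% of variance) placed wild-type arrays between -18.9 and -11.6. It placed the 8-month knockout arrays at 50.7, 45.6 and 9.85, so replicates 1 and 2 of that group stood apart from all other arrays. Replicate 3 of that group lay just below the knockout arrays at 5 months (11.1 to 17.6). Its mean correlation with its own group, 0.961, was the lowest of all arrays, beside 0.967 and 0.969 for replicates 1 and 2. Ratios of 5' to 3' signal for actin, a measure of RNA integrity, were 0.432 to 0.482 in the knockout at 8 months and 0.501 to 0.525 in the wild type of that age. For Gapdh they were 1.22 to 1.25 and 1.26 to 1.35. The lowest actin ratio of all was 0.389, on replicate 1 of the knockout at 5 months, and replicate 3 of the wild type at 5 months was at 0.412.

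Apoptosis is entered by 2 routes. In the extrinsic route death receptors such as Fas activate caspase-8, and in the intrinsic route cytochrome c leaves the mitochondrion, binds Apaf1 and activates caspase-9. Both routes end in executioner caspases. Bcl2 and the Bcl2l1 product Bcl-xL hold the mitochondrial route closed, and Bax opens it. Caspase-1 and caspase-4 (caspase-11 in mice) act in inflammasomes and pyroptosis in microglia and macrophages, and caspase-12 is a mouse relative of them that has been linked to endoplasmic reticulum stress. In the infantile form of the disease, loss of cortical neurons comes with activation of glia.

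Casp1, Casp4 and Casp12 are neighbours. In the RefSeq gene table of assembly GRCm38.p6 they lay on chromosome 9 with 0 protein-coding genes between Casp1 and Casp4 and 0 between Casp4 and Casp12. Their promoters are shown because of the 3 neighbours Casp12 passed the test described further on, Casp1 did not, and Casp4 was too dim to be tested. The stretches are the RefSeq bases upstream of each start on the + strand of GRCm38.p6, written 5' to 3'. Capitals mark matches to the searched motifs that fall wholly inside the stretch. For Casp12 the stretch is chr9:5345226-5345441, which ends before the first annotated base of the gene. For Casp4 it is chr9:5308599-5308848 and for Casp1 chr9:5298267-5298516.
Casp12: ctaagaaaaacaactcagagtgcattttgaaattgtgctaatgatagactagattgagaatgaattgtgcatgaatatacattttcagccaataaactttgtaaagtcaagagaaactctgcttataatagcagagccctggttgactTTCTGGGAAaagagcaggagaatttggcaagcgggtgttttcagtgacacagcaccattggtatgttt
Casp4: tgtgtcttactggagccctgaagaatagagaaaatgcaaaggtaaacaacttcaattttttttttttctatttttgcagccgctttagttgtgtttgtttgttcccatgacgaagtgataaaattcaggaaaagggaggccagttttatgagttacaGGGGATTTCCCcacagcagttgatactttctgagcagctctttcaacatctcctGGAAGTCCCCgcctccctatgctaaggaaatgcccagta
Casp1: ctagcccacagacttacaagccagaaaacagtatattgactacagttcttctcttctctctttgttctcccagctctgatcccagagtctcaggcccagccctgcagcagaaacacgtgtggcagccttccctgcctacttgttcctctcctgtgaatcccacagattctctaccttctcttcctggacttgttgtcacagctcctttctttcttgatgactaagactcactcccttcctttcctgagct

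Motifs were searched on both strands of the 250 bases upstream of each start. They were the interferon-stimulated response element GAAANNGAAA, the gamma-activated site TTCNNNGAA bound by STAT factors, the NF-kappaB site and the endoplasmic reticulum stress element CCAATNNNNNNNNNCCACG. Casp12 held 2 gamma-activated site matches. TTCTGGGAA at bases -102 to -94 is in capitals, and the other match, at -36 to -28, runs past the printed stretch. Casp4 held 3 NF-kappaB matches, a pair of them overlapping in GGGGATTTCCC and the third being GGAAGTCCCC at -39 to -30. Casp1 held 0 matches of the 4 motifs. Among 32851 RefSeq windows of the same length, 7.02% held a gamma-activated site match, 7.25% an NF-kappaB match, 2.98% an interferon-stimulated response element and 0.113% an endoplasmic reticulum stress element. A match describes letters and does not show that a factor binds there.

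Whether the caspase and Bcl2 genes differed between knockout and wild type was asked over the mean of the 3 ages and at each age. Values were compared as log2(signal + 16), so a fold is on that scale and understates changes of dim probe sets. The linear model (limma) used all 18 arrays, the 6 groups and a term for sex, and p-values were adjusted by Benjamini-Hochberg over the 27025 probe sets tested, with a threshold of 0.05. Errors after a log2 change are standard errors of the fit, and errors after a signal are SD over arrays. Of the 19 probe sets, 15 were bright enough to be tested, covering 7 of the 9 genes. The labels do not say that arrays of 1 group came from separate mice, so p-values measure only the spread between these samples. In bulk tissue RNA, fewer cells of a type and less RNA per cell cannot be told apart, and the same holds for more cells and more RNA.

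Over the mean of the ages, 4 of the 15 tested probe sets were higher in the knockout, and 0 were lower. They were both probe sets of Casp12 and 2 of the 5 of Bcl2. Of all 27025 tested probe sets, 6.62% were higher, 6.02% lower and 12.6% called in either direction. The median log2 change of the 15 was 0.14, beside -0.01 over all tested probe sets, and 11 of the 15 changes were positive. An unadjusted p under 0.05 was reached by 8 of the 15, beside 25.5% of all. At 3 months 0 were called, beside 0.955% of all probe sets, and 3 had an unadjusted p under 0.05, beside 9.8%. At 5 months 0 were called, beside 2.2%, and 3 had an unadjusted p under 0.05, beside 13.7%. At 8 months 1 was called, a probe set of Casp12 that was higher, beside 5.74% of all probe sets called higher and 11.6% called in either direction, and 5 had an unadjusted p under 0.05, beside 25.7%. At 3 and 5 months a count of 0 of 15 is what such small background shares would give. At 8 months 1 of 15 is near the background. Over the mean of the ages the count fell to 2 without replicate 2 or 3 of the knockout at 5 months or replicate 2 at 8 months.

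**Figure D1:**
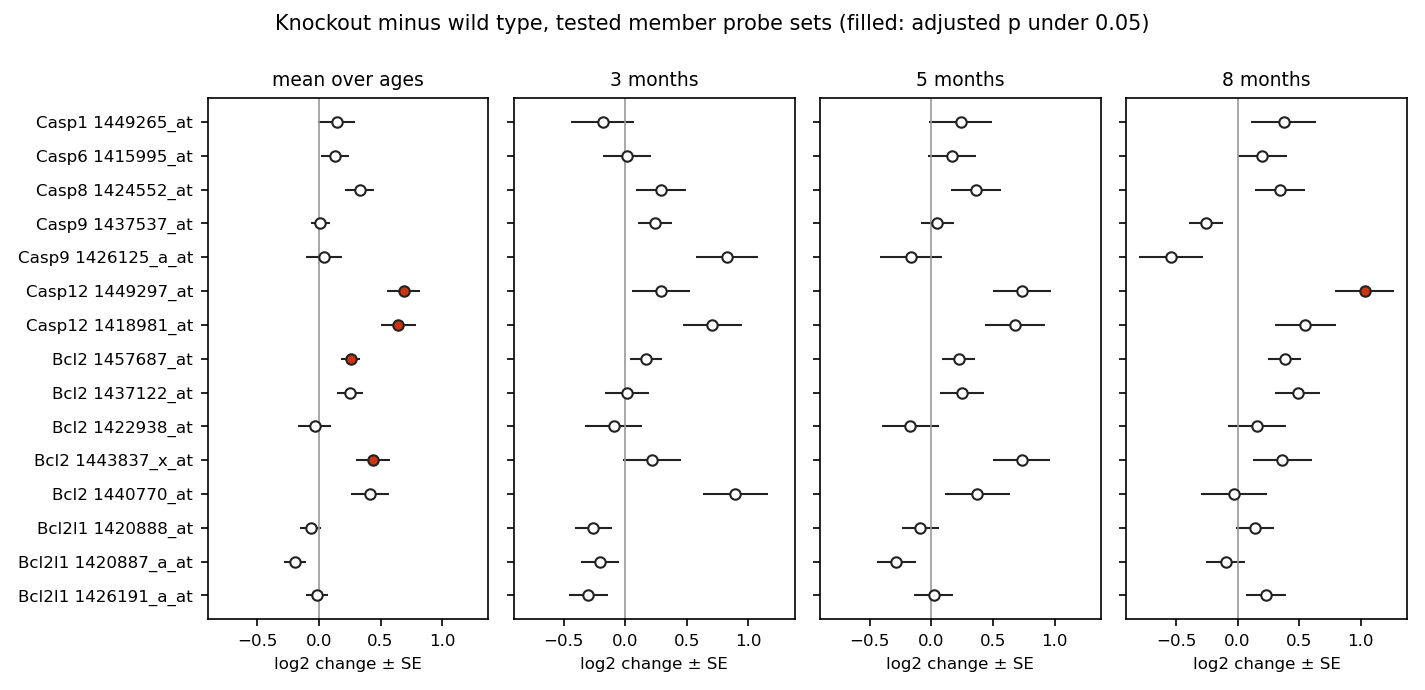
Knockout minus wild-type log2 change of the 15 tested probe sets, averaged over ages and at each single age, with bars of 1 standard error. Filled red points passed an adjusted p of 0.05: 4 as the mean over ages and 1 at 8 months.

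The clearest difference was in Casp12. The brighter of its 2 probe sets, 1449297_at, read 28.5, 35.7 and 22.2 in the wild type at 3 months, 37.7, 28.8 and 21.8 at 5 months, and 15.9, 33.4 and 26.6 at 8 months (signal, replicates 1 to 3). In the knockout it read 42.9, 50.1 and 25.4 at 3 months, 52.2, 53.1 and 72.9 at 5 months, and 76.2, 73.9 and 50.5 at 8 months. Of the 9 knockout arrays, 8 lay above every wild-type array, and replicate 3 at 3 months lay among the wild-type arrays. How many of all tested probe sets were separated to this degree over all ages was not counted. The knockout arrays lay above all wild-type arrays of their age at 5 and at 8 months, which 10.2% and 11.7% of all tested probe sets also did.

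The mean Casp12 signal on this probe set was 55.2 ± 16.6 for the knockout against 27.9 ± 7.11 for the wild type (SD over 9 arrays each). The log2 change was 0.69 ± 0.14, a fold of 1.61 (limma adjusted p = 0.00170). It was 0.29 ± 0.23 at 3 months (adjusted p = 0.770), 0.73 ± 0.23 at 5 months (adjusted p = 0.125) and 1.03 ± 0.24 at 8 months (adjusted p = 0.00720), where the fold was 2.05. The rising series of 3 point values was not itself a call: the 8-month effect less the 3-month effect was 0.74 ± 0.33 (adjusted p = 0.311). The call at 8 months was lost without replicate 2 of the knockout at that age (0.97, adjusted p = 0.0601) and without replicate 1 of the wild type (0.82, adjusted p = 0.0777). Without both knockout arrays that stood apart the 8-month change was 0.73. That fit leaves 1 knockout array at 8 months, so only the size of a change is given for it.

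By group mean, Casp12 on this probe set was ordered wild type at 8 (25.3 ± 8.84), 3 (28.8 ± 6.76) and 5 months (29.5 ± 7.95), then knockout at 3 (39.5 ± 12.7), 5 (59.4 ± 11.7) and 8 months (66.9 ± 14.2; SD over 3 arrays). The 3 wild-type groups overlapped one another, and so did the knockout at 5 and 8 months. The knockout at 3 months overlapped the wild type and lay wholly below the knockout at 5 months.

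The other Casp12 probe set, 1418981_at, read 19.0, 3.11 and 27.2 in the wild type at 3 months, 23.9, 27.2 and 26.7 at 5 months, and 31.7, 32.1 and 31.8 at 8 months. The knockout read 40.8, 32.9 and 29.4 at 3 months, 59.6, 54.0 and 40.9 at 5 months, and 54.2, 64.9 and 47.6 at 8 months. At each age every knockout array lay above every wild-type array of that age, as it did for 9.83%, 10.2% and 11.7% of all tested probe sets at 3, 5 and 8 months. Replicate 2 of the wild type at 3 months was at background, and without it the 3-month change given next was 0.36 (limma adjusted p = 0.733).

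The mean over ages of this second Casp12 probe set differed by 0.65 ± 0.14, a fold of 1.56 (adjusted p = 0.00382), with signals of 47.1 ± 12.1 for the knockout against 24.7 ± 9.15 for the wild type (SD over 9 arrays each). It passed at no single age, with changes of 0.71 ± 0.24 at 3 months (adjusted p = 0.248), 0.68 ± 0.24 at 5 months (adjusted p = 0.186) and 0.55 ± 0.25 at 8 months (adjusted p = 0.163). The 8-month effect less the 3-month effect was -0.16 ± 0.35 here (adjusted p = 0.8804) and did not pass on either probe set. The difference between the probe sets was not tested. With a pseudocount of 64 in place of 16 the 2 changes over ages shrank to 0.37 and 0.32, and with 1 they were 0.95 and 1.02.

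**Figure D2:**
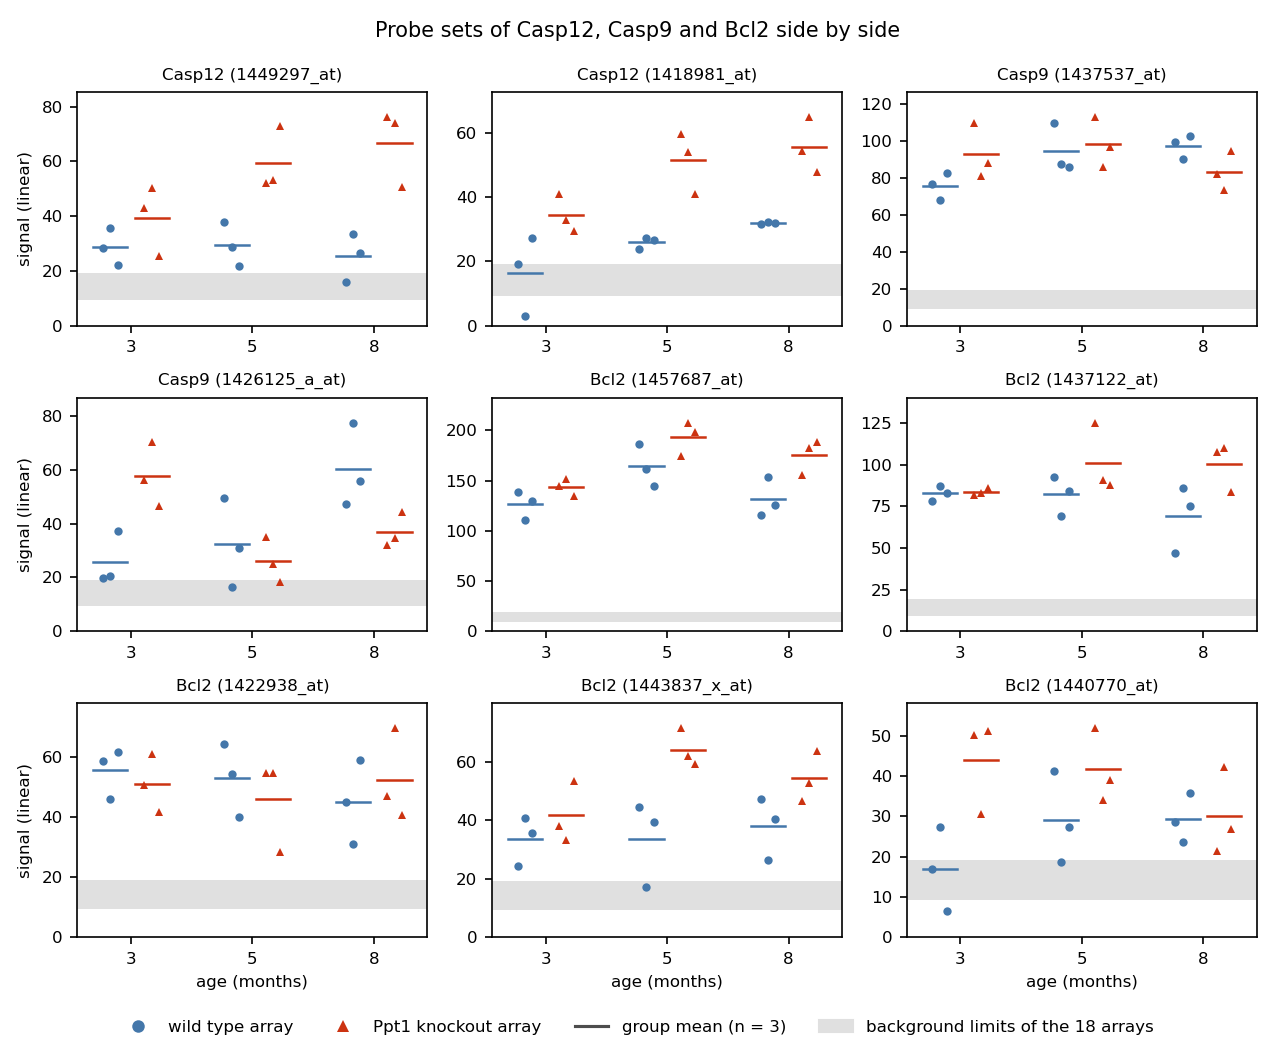
Signals of the 2 Casp12, 2 Casp9 and 5 Bcl2 probe sets by age, with wild type as circles and knockout as triangles, 3 arrays for each group. Both Casp12 probe sets lie higher in the knockout as the mean over ages. Casp9 1426125_a_at lies higher at 3 months and lower at 8 months, and neither of these differences passed the test.

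By the distance of centred log2 values over the 18 arrays, the 3 genes whose pattern was nearest to Casp12 1449297_at among 12489 genes were Hexa, Stat3 and Fcgr1. Their root mean square distances were 0.211, 0.212 and 0.217, beside a spread of Casp12 around its own mean of 0.447. Hexa, a subunit of the lysosomal enzyme hexosaminidase, was higher in the knockout by 0.55 (limma adjusted p = 3.64e-08) over the mean of the ages. Stat3, a transcription factor of cytokine signalling, was higher by 0.70 (adjusted p = 2.74e-06), and Fcgr1, an Fc receptor of phagocytes, by 0.63 (adjusted p = 0.000672). The 3 genes were picked for likeness to Casp12 on these same arrays, and Casp12 was itself called higher. Their own differences are therefore not separate support, and the distances describe likeness over these samples only.

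Most markers of microglia and astrocytes were higher in the knockout, as Casp12 was. Of 10 tested microglial markers, 6 were higher and 1 lower over the mean of the ages, with a median log2 change of 0.77. Of all genes tested at their brightest probe set, 8.39% were higher and 6.43% lower. Their summed signal was 2677 to 3532 on the wild-type arrays and 4127 to 4384, 5171 to 5400 and 4745 to 8130 on the knockout arrays at 3, 5 and 8 months. Of 7 astrocyte markers, 6 were higher (median 0.24), with sums of 17269 to 18913 in the wild type and 19336 to 30660 in the knockout. Of 9 neuronal markers, 3 were lower (median -0.11), with sums of 30543 to 34967 in the wild type and 27735 to 33296 in the knockout. Of 5 oligodendrocyte markers 0 were called, and of 5 endothelial markers 1 was higher. Of 6 blood leukocyte markers named on the array, Cd3e, Cd3g, Ms4a1 and Ccr2 were at background on 13, 14, 9 and 9 of the 18 arrays, and the neutrophil genes S100a8 and S100a9 on 0 of 18. Of the 2 leukocyte markers tested, 0 were called over the mean of the ages (limma adjusted p = 0.958 and 0.927). The part of these cell types in the differences of Casp12 and Bcl2 was not tested.

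The other 2 inflammatory caspases were not called. Casp1, which processes interleukin-1 beta and interleukin-18, was read by 1449265_at at 17.3, 35.6 and 31.2 in the wild type at 3 months, 20.8, 50.03 and 21.1 at 5 months, and 33.9, 21.1 and 44.2 at 8 months. The knockout read 22.1, 23.3 and 20.9 at 3 months, 35.1, 39.7 and 35.8 at 5 months, and 31.1, 72.1 and 30.9 at 8 months. The genotypes overlapped at every age, and the highest array was replicate 2 of the knockout at 8 months.

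The Casp1 change over the mean of the ages was 0.14 ± 0.15 (limma adjusted p = 0.605), with -0.18 at 3 months (adjusted p = 0.893), 0.24 at 5 months (adjusted p = 0.753) and 0.37 at 8 months (adjusted p = 0.394). Without replicate 2 of the knockout at 8 months the Casp1 change was 0.10 at that age (adjusted p = 0.901) and 0.05 over the mean of the ages (adjusted p = 0.890). At 5 months it was 0.04 without replicate 3 of the wild type and 0.475 without replicate 2. Within the knockout, Casp1 was 0.71 ± 0.26 higher at 8 than at 3 months, without passing the test (adjusted p = 0.118). This was the smallest adjusted p among the 15 probe sets in that comparison, in which 0 were called beside 5.62% of all probe sets, and 2 had an unadjusted p under 0.05 beside 20.6%. Within the wild type 0 were called from 3 to 8 months, beside 0.0296%, and 4 had an unadjusted p under 0.05 beside 6.73%.

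Casp4, the mouse caspase that senses cytosolic bacterial lipopolysaccharide, had 1 probe set, 1449591_at, which was too dim to be tested. Its wild-type signals were 1.77, 2.98 and 12.6 at 3 months, 2.05, 1.08 and 1.29 at 5 months, and 21.9, 1.73 and 8.81 at 8 months. Its knockout signals were 1.23, 9.69 and 3.83 at 3 months, 8.65, 2.70 and 18.9 at 5 months, and 23.0, 27.01 and 27.1 at 8 months. It was at or below background on 7 of 9 wild-type and 5 of 9 knockout arrays.

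At 8 months all 3 Casp4 knockout arrays were above background and above the wild-type arrays, of which 2 were at background. Of all tested probe sets, 11.7% had the same order of arrays at 8 months. At 5 months the 3 Casp4 knockout arrays also lay above the wild-type arrays, as for 10.2% of all tested probe sets. There, 2 of them and all 3 wild-type arrays were at background. In a fit of all 45037 non-control probe sets with no filter on dim ones, the Casp4 difference at 8 months was 0.70 ± 0.29 (adjusted p = 0.176) and did not pass. The plain difference of group means at 8 months was 1.65 with a pseudocount of 1 in place of 16, and 0.27 with 64. At 3 and 5 months no fold is given, because a whole group lay at background.

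**Figure D3:**
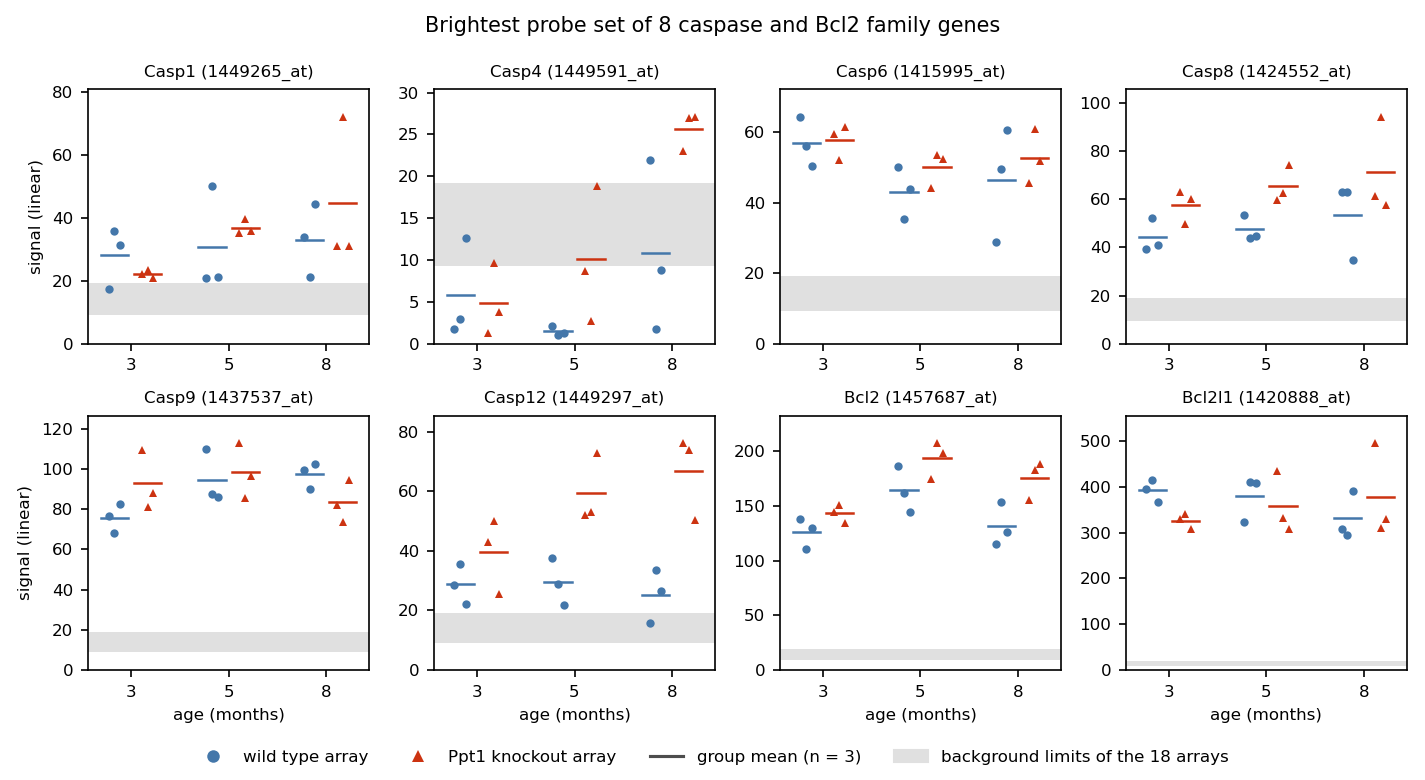
Signal of the brightest probe set of each of the 8 genes by age (months), with wild type as circles, knockout as triangles and the mean of 3 arrays as a line. The grey band spans the background limits of the arrays, 9.24 to 19.2, within or below which most Casp4 arrays lie, and the knockout arrays of Casp12 lie above the wild-type arrays at 5 and 8 months.

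Casp8, the initiator of the death receptor route, had 1 probe set, 1424552_at. It read 39.2, 52.3 and 40.8 in the wild type at 3 months, 53.7, 43.9 and 44.8 at 5 months, and 62.8, 62.9 and 34.6 at 8 months. In the knockout it read 62.9, 49.6 and 59.98 at 3 months, 59.9, 62.6 and 74.1 at 5 months, and 61.4, 94.4 and 57.6 at 8 months. The knockout arrays were all above the wild-type arrays at 5 months only, beside 10.2% of all tested probe sets, and overlapped them at 3 and 8 months.

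The Casp8 means were 64.7 ± 12.8 for the knockout against 48.3 ± 10.2 for the wild type (SD over 9 arrays each). The log2 change over the mean of the ages, 0.33 ± 0.12, did not pass (limma adjusted p = 0.0685), and the changes of 0.29, 0.36 and 0.34 at 3, 5 and 8 months did not either (adjusted p = 0.711, 0.459 and 0.311). The call depended on single arrays: it passed without replicate 3 of the knockout at 8 months (0.36, adjusted p = 0.0358) and without replicate 1 of the wild type at 8 months (0.39, adjusted p = 0.0497). Without both knockout arrays that stood apart, the change over ages was 0.24 and the 8-month change 0.07. Without replicate 2 of the knockout at 8 months alone, the 8-month change was 0.10 (adjusted p = 0.859).

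Casp9, the initiator of the mitochondrial route, had 3 probe sets, of which 1457816_at was at or below background on all 18 arrays. The brightest, 1437537_at, read 76.7, 68.0 and 82.4 in the wild type at 3 months, 109.8, 87.7 and 85.9 at 5 months, and 99.2, 90.0 and 102.6 at 8 months. The knockout read 109.5, 80.9 and 88.0 at 3 months, 112.9, 85.6 and 96.5 at 5 months, and 82.0, 73.7 and 94.4 at 8 months. The genotypes overlapped at each age.

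Over the mean of the ages Casp9 1437537_at differed by 0.01 ± 0.08 (limma adjusted p = 0.952), and this sign turned under quantile normalization, median centring and array weights. The knockout exceeded the wild type by 0.24 ± 0.14 at 3 months (adjusted p = 0.608) and lay below it by 0.26 at 8 months (log2 change -0.26 ± 0.14, adjusted p = 0.253). The 8-month effect less the 3-month effect was -0.50 ± 0.19 (adjusted p = 0.232).

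The other tested Casp9 probe set, 1426125_a_at, had the same signs at 3 and 8 months with larger differences. Its wild-type signals were 19.9, 20.5 and 37.3 at 3 months, 49.6, 16.6 and 31.0 at 5 months, and 47.4, 77.4 and 55.7 at 8 months. Its knockout signals were 56.3, 70.1 and 46.7 at 3 months, 35.0, 24.9 and 18.3 at 5 months, and 32.1, 34.6 and 44.2 at 8 months. Every knockout array was above every wild-type array at 3 months (9.83% of all tested probe sets) and below every wild-type array at 8 months (14.3%), and both together held for 0.777% of all tested probe sets.

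The Casp9 1426125_a_at change was 0.83 ± 0.25 at 3 months (limma adjusted p = 0.166), -0.16 at 5 months (adjusted p = 0.842) and -0.54 ± 0.26 at 8 months (adjusted p = 0.189), and none passed. The effect at 8 minus 3 months was -1.37 ± 0.36 (unadjusted p = 0.00107, adjusted p = 0.0704), the smallest adjusted p of the 15 probe sets in that comparison. There 0 of 15 were called, beside 1.04% of all probe sets, and 5 had an unadjusted p under 0.05, beside 14.4%. Without replicate 3 of the knockout at 8 months it was -1.45 (adjusted p = 0.0232). Within the wild type this probe set was 0.87 ± 0.25 higher at 8 than at 3 months (adjusted p = 0.401), and within the knockout the difference was -0.50 ± 0.26 (adjusted p = 0.275). Casp9 lies on chromosome 4, as Ppt1 does, with 329 protein-coding genes between them in the RefSeq table.

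Casp6, an executioner caspase that cleaves lamins, was read by 1415995_at at 64.5, 56.1 and 50.3 in the wild type at 3 months, 50.2, 35.3 and 43.9 at 5 months, and 29.0, 49.6 and 60.7 at 8 months. The knockout read 59.5, 52.1 and 61.5 at 3 months, 44.2, 53.5 and 52.5 at 5 months, and 45.6, 61.0 and 51.7 at 8 months. The groups overlapped at every age, with means of 53.5 ± 6.23 for the knockout against 48.8 ± 11.4 for the wild type (SD over 9 arrays each). The log2 change over the mean of the ages was 0.13 ± 0.11 (limma adjusted p = 0.531). Its other probe set, 1458715_at, was too dim to be tested and read 5.05 to 35.3 in the wild type and 6.08 to 28.8 in the knockout.

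Bcl2, the pro-survival gene that gives the family its name, had 5 probe sets, and all were tested. The brightest, 1457687_at, read 138, 110.6 and 129.9 in the wild type at 3 months, 186, 162 and 145 at 5 months, and 116, 154 and 126 at 8 months. The knockout read 145, 151 and 135 at 3 months, 175, 208 and 198 at 5 months, and 155, 183 and 189 at 8 months. All knockout arrays were above all wild-type arrays at 8 months, beside 11.7% of all tested probe sets, and the genotypes overlapped at 3 and 5 months.

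The Bcl2 1457687_at means were 171 ± 25.4 for the knockout against 141 ± 23.9 for the wild type (SD over 9 arrays each), and the log2 change was 0.26 ± 0.08, a fold of 1.195 (limma adjusted p = 0.0295). At single ages the changes of 0.17, 0.22 and 0.38 did not pass (adjusted p = 0.759, 0.497 and 0.0706). The call over the mean of the ages was lost on leaving out 9 of the 18 arrays in turn, with a highest adjusted p of 0.0858 and a change of 0.22 without replicate 1 of the wild type at 8 months. By group mean the order was wild type at 3 months (126 ± 14.2) and 8 months (132 ± 19.7), knockout at 3 months (144 ± 8.35), wild type at 5 months (164 ± 20.8), and knockout at 8 months (176 ± 17.8) and 5 months (194 ± 16.8; SD over 3 arrays). All neighbours in this order overlapped, and both genotypes were brightest at 5 months.

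The Bcl2 probe set 1443837_x_at read 24.2, 40.8 and 35.7 in the wild type at 3 months, 44.6, 17.3 and 39.3 at 5 months, and 47.2, 26.2 and 40.6 at 8 months. In the knockout it read 38.0, 33.3 and 53.6 at 3 months, 71.4, 62.0 and 59.1 at 5 months, and 46.8, 52.6 and 63.8 at 8 months. The knockout arrays were all above the wild-type arrays at 5 months only, beside 10.2% of all tested probe sets. Over all ages 6 of the 9 lay above every wild-type array, and the share of all probe sets with such an order was not counted. The change over the mean of the ages was 0.44 ± 0.14 (limma adjusted p = 0.0363), with 0.22, 0.73 and 0.36 at 3, 5 and 8 months (adjusted p = 0.847, 0.123 and 0.359). This call was lost on leaving out 8 of the 18 arrays in turn (highest adjusted p = 0.111) and without a filter on dim probe sets (adjusted p = 0.0769). Without both knockout arrays that stood apart, the change over ages was 0.49.

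The other 3 Bcl2 probe sets did not pass. For 1437122_at the change was 0.25 ± 0.10 (limma adjusted p = 0.125), for 1440770_at 0.41 ± 0.15 (adjusted p = 0.0857) and for 1422938_at -0.04 ± 0.13 (adjusted p = 0.902). The change on 1440770_at was 0.89 ± 0.26 at 3 months (adjusted p = 0.143) and -0.03 at 8 months. At 3 months all its knockout arrays (30.5 to 51.1) lay above all wild-type arrays (6.55 to 27.3), as for 9.83% of all tested probe sets, and the lowest wild-type array was at background. On 1437122_at the change was 0.01 at 3 months and 0.49 ± 0.18 at 8 months (adjusted p = 0.0868). The 8-month effect less the 3-month effect passed on neither (adjusted p = 0.255 for 1440770_at and 0.409 for 1437122_at). So 4 of the 5 Bcl2 changes were positive and 2 of the 5 passed.

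The 3 genes nearest to Bcl2 1457687_at over the 18 arrays were Nhsl1, Hnrnpf and Cdc42ep4, at root mean square distances of 0.137, 0.148 and 0.149 beside a spread of 0.233 of Bcl2 itself. Of these, Hnrnpf, an RNA-binding protein, was higher by 0.27 (limma adjusted p = 0.000317) and Cdc42ep4, an effector of the GTPase Cdc42, by 0.20 (adjusted p = 0.0304). Nhsl1 differed by 0.14 and did not pass (adjusted p = 0.225). The 3 genes were picked for likeness to Bcl2 on these same arrays, so their differences are not separate support.

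Bcl2l1, which encodes Bcl-xL, had 4 probe sets, of which 3 were tested. The brightest, 1420888_at, read 395, 415 and 366 in the wild type at 3 months, 323, 409 and 408 at 5 months, and 308, 294 and 390.0 at 8 months. The knockout read 329, 339 and 307 at 3 months, 435, 332 and 308 at 5 months, and 495, 309.7 and 330.1 at 8 months. All knockout arrays were below all wild-type arrays at 3 months, beside 8.61% of all tested probe sets, and the genotypes overlapped at 5 and 8 months.

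The Bcl2l1 1420888_at change was -0.07 ± 0.09 over the mean of the ages (limma adjusted p = 0.684), with -0.26 ± 0.15 at 3 months (adjusted p = 0.620), -0.09 at 5 months (adjusted p = 0.857) and 0.14 at 8 months (adjusted p = 0.603). Replicate 1 of the knockout at 8 months, at 495, set the last sign, and without it the change was -0.04 (adjusted p = 0.915). For 1420887_a_at the change over ages was -0.20 ± 0.09 (adjusted p = 0.180), and for 1426191_a_at -0.02 ± 0.09 (adjusted p = 0.934). At 3 months 1426191_a_at also had all knockout arrays (91.3 to 106.5) below all wild-type arrays (120.1 to 129.3), beside 8.61% of all tested probe sets. The change was -0.30 ± 0.16 (adjusted p = 0.569). The dim probe set 1426050_at was at or below background on 5 of 9 arrays of each genotype.

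The other genes of the same pathways were taken from 10 lists of 80 genes, of which 68 were named on the array and 48 tested, each at its brightest tested probe set. Over the mean of the ages 6 were higher and 1 was lower, a share of 14.6%, beside 14.8% of the 12496 genes tested so (8.39% higher and 6.43% lower). At 3 months 0 were called, beside 1.25% of genes, at 5 months 3 were higher, beside 2.97% called in either direction, and at 8 months 8 were higher and 1 lower, a share of 18.8% beside 12.9%. Without replicate 3 of the knockout at 8 months the 7 calls over ages became 15. The share of all genes called in that fit was not counted, so the 15 has no background beside it. Trp53 was not analysed here.

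Among 7 tested genes of the death receptor list, 2 were higher. Tnfrsf1a, the main receptor for tumour necrosis factor, was higher by 0.75 ± 0.11 over the mean of the ages (limma adjusted p = 4.25e-05) and by 1.35 ± 0.18 at 8 months (adjusted p = 5.41e-05). Fas, which activates caspase-8, was higher by 0.64 ± 0.16 (adjusted p = 0.00853) and at 8 months by 1.32 ± 0.28 (adjusted p = 0.00350). Without both knockout arrays that stood apart, the changes over ages and at 8 months were 0.50 and 0.89 for Fas. For Tnfrsf1a they were 0.61 and 0.94. Casp8 itself, downstream of both receptors, did not pass.

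In the rest of the Bcl2 family, Mcl1, a pro-survival gene, had a mean of 1049 for the knockout against 749 for the wild type. It was higher by 0.46 ± 0.05 over the mean of the ages (limma adjusted p = 5.22e-07), by 0.48 at 5 months (adjusted p = 0.00115) and by 0.63 at 8 months (adjusted p = 3.46e-05). Of 10 tested pro-death genes 1 was higher: Pmaip1, which encodes the Mcl1 antagonist Noxa, by 0.54 ± 0.15 (adjusted p = 0.0190) and by 1.06 ± 0.26 at 8 months (adjusted p = 0.0118). Its 8-month call was lost without replicate 1 or 2 of the knockout at that age (adjusted p = 0.0756 and 0.0643). Without the pair, the Pmaip1 changes were 0.30 over ages and 0.34 at 8 months. Bak1, a pore former like Bax, differed by 0.17 ± 0.13 (adjusted p = 0.462), and Bid, which caspase-8 cleaves, by 0.24 ± 0.09 (adjusted p = 0.0937).

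Of 6 tested genes of the apoptosome and mitochondrial release, 1 was lower: Cycs, which encodes cytochrome c and gives caspase-9 its trigger, with a change of -0.17 ± 0.05 (limma adjusted p = 0.0238). That call was lost on leaving out 5 of the 18 arrays in turn (highest adjusted p = 0.0857, without replicate 2 of the knockout at 8 months). Without both knockout arrays that stood apart, the Cycs change was -0.08. Apaf1 differed by 0.25 ± 0.10 (adjusted p = 0.0964). Casp2, the remaining initiator caspase, differed by 0.02 ± 0.09 (adjusted p = 0.923), and 0 of the 2 tested other caspases passed.

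Of 4 tested inhibitors of apoptosis 1 was higher, Birc3, an NF-kappaB target that ubiquitinates signalling proteins of the tumour necrosis factor receptor, by 0.96 ± 0.14 (limma adjusted p = 7.08e-05). Of 3 tested inflammasome genes 1 was higher, Pycard, the adaptor that recruits caspase-1, by 0.69 ± 0.11 (adjusted p = 0.000253). At 5 months they were higher by 1.26 (adjusted p = 0.00402) and 0.94 (adjusted p = 0.00766). Without replicate 1 of the knockout at 5 months these 2 calls at that age were lost (1.09 and 0.92, adjusted p = 0.0597 and 0.0565), and that of Pycard also without replicate 1 of the wild type (0.75, adjusted p = 0.0777). Il18, a substrate of caspase-1, differed by 0.06 ± 0.06 (adjusted p = 0.591). The other substrates Il1b and Gsdmd were too dim to be tested: Il1b read 17.5 to 36.6 in the knockout and 3.81 to 57.4 in the wild type, and Gsdmd 3.57 to 47.7 and 1.99 to 36.2.

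**Figure D4:**
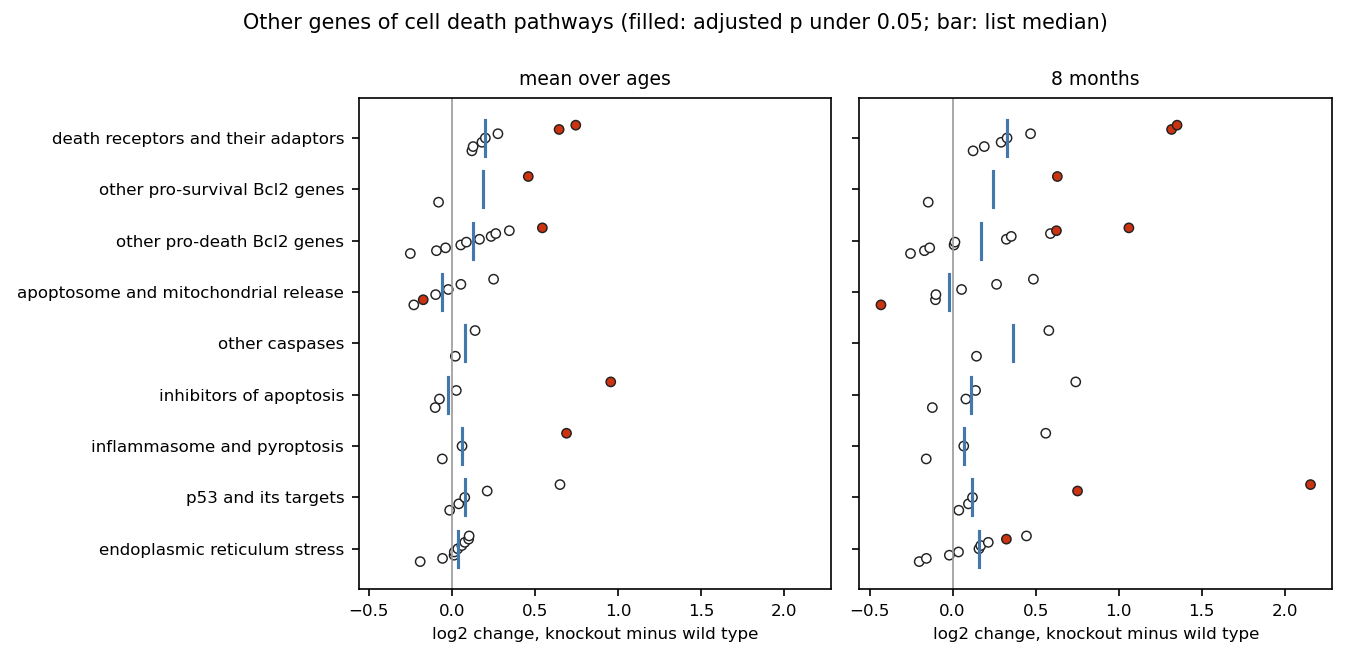
Knockout minus wild-type log2 change of the tested genes of 9 pathway lists, as the mean over ages and at 8 months, with the median of each list as a bar. Over the mean of the ages 6 genes were higher and 1 lower, and at 8 months 8 were higher and 1 lower.

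The endoplasmic reticulum stress list, taken because caspase-12 has been linked to that response, had 9 tested genes, and 0 were called over the mean of the ages (limma), with a median change of 0.04 beside -0.01 over all genes. Ddit3, the transcription factor CHOP, differed by 0.10 ± 0.07 (adjusted p = 0.394). Of 5 tested genes of the p53 list 0 were called over the mean of the ages, with a median of 0.08. None of the 3 necroptosis genes was bright enough to be tested.

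At 8 months 5 further genes passed that had not passed over the mean of the ages, and they are named after their values were seen. Cdkn1a, the cell cycle inhibitor p21, was higher by 2.15 ± 0.46 (limma adjusted p = 0.00368), and by 1.25 without both knockout arrays that stood apart. Replicate 1 of the knockout at 8 months weighed most: without it alone Cdkn1a was higher by 1.255, and the Trp53inp1 change was 0.37 (adjusted p = 0.104). Trp53inp1, a p53 target, was higher by 0.75 ± 0.22 (adjusted p = 0.0279), Bmf, a pro-death Bcl2 gene, by 0.62 ± 0.20 (adjusted p = 0.0442), and Hsp90b1, a chaperone of the endoplasmic reticulum, by 0.32 ± 0.08 (adjusted p = 0.0155). Htra2, a mitochondrial protease, was lower, with a change of -0.43 ± 0.14 (adjusted p = 0.0490). On leaving out the 18 arrays in turn, the calls of Trp53inp1, Bmf, Hsp90b1 and Htra2 were lost 3, 11, 1 and 14 times, with highest adjusted p of 0.184, 0.194, 0.146 and 0.195, and that of Cdkn1a 0 times. Without both knockout arrays that stood apart, the changes were 0.19 for Trp53inp1, 0.44 for Bmf, -0.33 for Htra2 and 0.55 for Hsp90b1.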

How the data were processed

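The 18 samples, of 2 genotypes and 3 ages, were each measured on 1 Affymetrix-type mouse array. The authors deposited 1 linear intensity per probe set. The scaling, software and genome build were not given in the sources used here. A mean trimmed of 2% at either end came to 150.001 on each array, and the intensities were used as deposited. No 2 arrays were identical. Groups and sex came from the labels, and replicates were numbered in record order, which pairs no samples. Precision is limited by 3 arrays a group.

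The 64 control probe sets and the dimmest 40% of all were dropped. The platform annotation gave 1 gene symbol for 22966 of the 27025 tested, several for 571 and none for 3488, and names come from the first kind only. limma 3.58.1 in R 4.3.3 (lmFit, eBayes with a variance trend) was fitted to log2(signal + 16) with group and sex, with two-sided tests and Benjamini-Hochberg adjustment, and was tested on simulated data. Background limits were the 95th percentile of 27 bacterial control probe sets. The members and lists were chosen with earlier results of these data known, and probe sets and genes were named by rule: all member probe sets, up to 3 genes of each pathway list with the smallest p over the mean of the ages, a set of pathway genes whatever their values, and the 3 genes nearest to each called member. Promoter sequences are from RefSeq, GRCm38.p6, and 8 of the 9 genes matched by Entrez identifier. Alternatives changed the pseudocount, normalization, filter, model terms and the arrays included.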

Additional observations from a re-analysis of the deposited data

Results flagged for a closer look

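For Casp9 probe set 1426125_a_at the point values of the genotype effect had opposite signs at 3 and 8 months. Neither passed in the limma fit (adjusted p = 0.166 and 0.189). Every knockout array was above every wild-type array at 3 months (9.83% of all tested probe sets) and below every one at 8 months (14.3%). Both together held for 0.777% of all tested probe sets. The 8-month effect less the 3-month effect was -1.37 on the log2 scale. In the limma fit this difference had an unadjusted p of 0.00107 and did not pass after adjustment over all probe sets (adjusted p = 0.0704). The brighter Casp9 probe set 1437537_at had a difference of -0.50 (adjusted p = 0.232).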

How the results depend on the processing

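No paired analysis was possible because the labels hold no number shared between groups, and the replicate numbers used here only follow record order. Over 93 results and 31 alternatives, 2595 of 2798 values, the main values not counted, were rated the same as the main value. For a change this means the same direction and side of the threshold, so a change that never passed is included. For a count it means an equal or near count, and for the Casp4 difference a value within the replicate spread. Both Casp12 probe sets passed over the mean of the ages in every alternative that tested them and kept several arrays in each group. On leaving out 1 array in turn, the limma adjusted p was 0.000633 to 0.00710 for 1449297_at and 0.000982 to 0.0159 for 1418981_at. With the lowest 60% of probe sets left out neither was tested.

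The 4 of 15 member probe sets called over the mean of the ages became 1 of the 6 tested with the lowest 60% left out. They became 2 of the 7 tested with 1 probe set per gene, and 2 to 5 on leaving out 1 array. The 2 came without replicate 2 or 3 of the knockout at 5 months or replicate 2 at 8 months. The 1 call at 8 months became 0 of the 6 tested with the lowest 60% left out, and 0 to 2 on leaving out 1 array. It was 0 without knockout replicate 2 or wild-type replicate 1 at 8 months and 2 without knockout replicate 3 or wild-type replicate 2. Leaving out both knockout arrays that stood apart was chosen after seeing the data. It left 1 knockout array at 8 months, assumed to vary like the others, so no count is given for it. The 0 calls for the effect at 8 minus 3 months became 1 with array weights and 0 to 1 on leaving out 1 array. The 7 other pathway genes called became 3 with the lowest 60% left out, 13 with array weights and 6 to 15 on leaving out 1 array (15 without knockout replicate 3 at 8 months). The shares of all probe sets and genes called under these settings were not counted.

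On the log2 scale, Bcl2 1457687_at over the mean of the ages ranged from 0.222 to 0.299 on leaving out 1 array. Casp8 was 0.369 with array weights (adjusted p = 0.0301) and 0.252 to 0.387 on leaving out 1 array. Casp9 1437537_at was -0.004 under quantile normalization, -0.007 under median centring, -0.008 with array weights and -0.015 to 0.038 on leaving out 1 array. Casp6 at 3 months was -0.017 under quantile normalization, -0.012 under median centring and -0.070 to 0.142 on leaving out 1 array, and at 8 months -0.062 to 0.343. Casp9 1426125_a_at was -0.036 to 0.14 over ages and -0.414 to 0.094 at 5 months. Bcl2l1 1420888_at was -0.246 to 0.001 at 5 months and -0.039 to 0.287 at 8 months. The cause of these shifts was not tested.

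Dim signals limit Casp4, Casp6 1458715_at, Casp9 1457816_at and Bcl2l1 1426050_at.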
